A study of Homo sapiens with 6 samples.

Results

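CXCL8, NFKB2, IER3, CEBPB and LCN2 are 5 genes linked to NF-kB signalling, inflammation and the acute-phase response. They are described here in cells kept with a plant extract, among 1099 genes in the authors' deposited table. They were chosen by name, with their values in this comparison known and because they moved in different directions. The direction and size of each difference are therefore descriptions. Whether a member passes the threshold used for the whole table, here or in another setting, is likewise a description of values the choice had already used and supports nothing. Poly(A) RNA of wild-type human cells labelled A549, a lung adenocarcinoma line, was sequenced in 6 libraries. For 24 h the cells of 3 libraries had DMSO as vehicle and those of the other 3 had F/B extract, which the series title names as an extract of Flos Sophorae Immaturus, the pagoda tree's flower bud, and broccoli seed. The labels give neither the extract's dose nor whether replicates were separate cultures, so the spread between libraries may be technical.

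NF-kB factors are dimers that inhibitor proteins of the IkB family hold in the cytoplasm until receptors for cytokines or microbial products trigger the inhibitors' loss. The canonical branch acts through RELA and NFKB1, and the non-canonical branch acts when the precursor encoded by NFKB2 is cut to an active subunit that pairs with RELB. In epithelial cells these factors switch on chemokines such as CXCL8 together with AP-1 and C/EBP factors. They also switch on genes that limit cell death or end the response.

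The library names in the labels begin with AGS, which is the name of a gastric adenocarcinoma line. A549 is known for the loss of MTAP, and the 6 libraries held 48.9 to 60.5 TPM of it (a level per transcript length, scaled to a fixed total). Of 12 lung epithelial markers 0 were in the table, and of 16 gastrointestinal markers 4 were, namely VIL1, CDH17, TFF1 and REG4. VIL1, which encodes villin of the brush border, ranged from 142 to 214 TPM. These 4 were called lower with extract, in a table where 53.2% of genes were called lower. VIL1 was at -0.42, CDH17 at -0.43, TFF1 at -0.83 and REG4 at -0.78. REG4 was called on only 1 of 4 other scales, and not without any 1 of the 3 vehicle replicates or extract replicate 2 or 3. CDH17 and TFF1 lost the call without vehicle replicate 2. The summed level of the 4 markers was 327 to 341 TPM in vehicle and 224 to 256 TPM in extract, and its part in the results below was not tested. Of 12 leukocyte markers 0 were in the table, and of 12 fibroblast and endothelial markers COL1A1 alone was, at 12.8 to 15.8 TPM in vehicle and 10.0 to 14.8 TPM in extract. COL1A1 was called lower at -0.33, a call lost on all 4 other scales. Unlisted genes were not analysed here. The table holds only genes selected as different between the groups, so a marker missing from it may still be expressed. The cells are called A549-labelled below.

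The table holds the 1099 genes with the smallest p-values of the 11289 that the authors' adjustment implies, or 9.74%, so every gene in it had been selected as different. Its estimated counts sum to 3084338 to 4640117 per library, which is not the sequencing depth. Normalised counts are these counts over size factors, numbers that put the libraries on the scale of the authors' own fold changes. A gene is called below when edgeR's quasi-likelihood test gives an adjusted p under 0.05. That test called 585 genes lower and 318 higher with extract, so 64.8% of calls were lower. The share was 34.7% on the scale that the TPM values imply. It was 24.6%, 18.4% and 18.2% when libraries were scaled on the listed genes by sums, by TMM or by DESeq2 size factors. The median log2 fold change of the whole table is higher by 0.09, 0.14, 0.16 and 0.17 on these scales in turn.

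The upstream sequences of CXCL8, NFKB2 and LCN2 are shown because they carry the letters that NF-kB, C/EBP and AP-1 factors are known to favour. Windows were the 250 bases before each RefSeq transcription start (GRCh38.p14, plus strand). The table of windows matched CXCL8, NFKB2, LCN2 and CEBPB, and IER3 was not matched. The LCN2 and NFKB2 stretches printed here lie inside the GENCODE gene spans given below, which begin before these RefSeq starts. Capitals mark a kB-like match (GGNNNTTCC), a C/EBP-like match (TTGCNAA) or an AP-1 match (TGANTCA), each searched on both strands, and bases of annotated exons outside a match are left out.
CXCL8, chr4:73740319-73740505: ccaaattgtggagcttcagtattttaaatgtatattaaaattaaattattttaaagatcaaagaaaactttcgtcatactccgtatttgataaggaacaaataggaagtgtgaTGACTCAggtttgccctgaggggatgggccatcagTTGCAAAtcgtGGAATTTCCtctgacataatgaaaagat
LCN2, chr9:128149265-128149440: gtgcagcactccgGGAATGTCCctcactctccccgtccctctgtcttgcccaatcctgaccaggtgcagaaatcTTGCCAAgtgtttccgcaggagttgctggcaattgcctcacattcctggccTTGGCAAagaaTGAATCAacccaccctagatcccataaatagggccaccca
NFKB2, start 3, chr10:102395455-102395693: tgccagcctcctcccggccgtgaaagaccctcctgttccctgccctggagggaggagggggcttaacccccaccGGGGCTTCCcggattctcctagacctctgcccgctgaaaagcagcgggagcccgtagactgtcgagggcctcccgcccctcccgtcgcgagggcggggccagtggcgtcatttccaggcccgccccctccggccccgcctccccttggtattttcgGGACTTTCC

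In CXCL8 the 3 kinds of match lay close together: TGACTCA from 137 to 131 bases before the start, TTGCAAA from 102 to 96 and GGAATTTCC from 91 to 83. LCN2 also held all 3 kinds, with GGAATGTCC from 175 to 167 bases before the start, TTGCCAA from 114 to 108, TTGGCAA from 63 to 57 and TGAATCA from 52 to 46. NFKB2 held only kB-like matches, with 0 before start 1, 3 before start 2, of which 2 overlap, and 2 before start 3. Those before start 3 were GGGGCTTCC from 176 to 168 bases and GGACTTTCC from 20 to 12 bases before it. The pair of CEBPB windows, at 75.6% and 77.6% G and C, held none of these letters, against 37.6% G and C in CXCL8.

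Over all 35116 windows of this length, 17.1% held a kB-like match, 8.33% a C/EBP-like match and 6.57% an AP-1 match. Over the 1256 windows of genes in the table the shares were 19.5%, 7.09% and 5.81%. All 3 kinds stood in 34 of all windows (0.0968%) and in 2 of the windows of table genes, those of CXCL8 and LCN2. The spellings were chosen with these sequences in view, so the shares are a description. CXCL8 and LCN2 thus carry the same 3 kinds of letters before their RefSeq starts and differed with extract in opposite directions. Whether any factor occupied them was not measured.

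**Figure D1:**
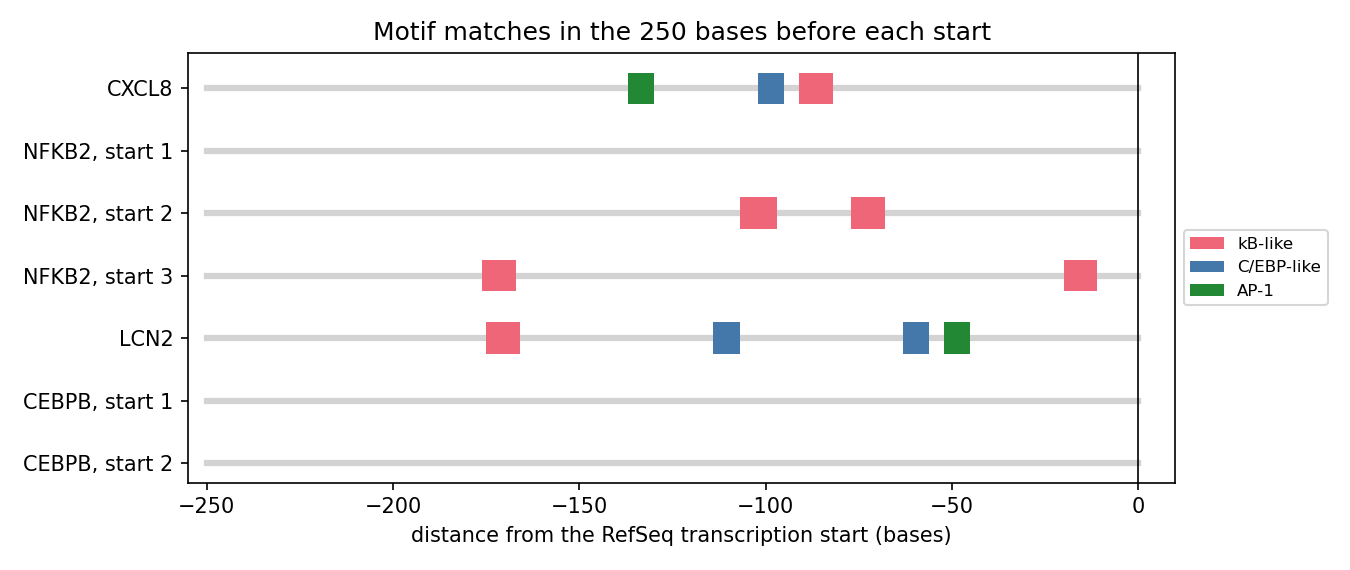
Positions of motif matches (coloured blocks) in the 250 bases before each RefSeq start of the 4 matched genes, with distance from the start in bases on the x axis. CXCL8 and LCN2 hold all 3 kinds, NFKB2 only kB-like matches and CEBPB none.

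CXCL8 (ENSG00000169429, GRCh38 chromosome 4, 73740506 to 73743716, plus strand) encodes interleukin-8, the chemokine that draws neutrophils through the receptors CXCR1 and CXCR2. Its normalised counts were 668.0, 669.3 and 669.7 in vehicle replicates 1 to 3 and 285.9, 329.4 and 439.7 in extract replicates 1 to 3. The vehicle libraries were nearly equal and all 3 extract libraries were lower, with extract replicate 3 nearest to vehicle. Group means were 669 ± 0.862 and 352 ± 79.3 (SD, n = 3 each), which is a log2 fold change of -0.93 (SE 0.13), or 1.90-fold lower with extract. In such bulk RNA, fewer cells that express a gene and less RNA per cell cannot be told apart. This was the 18th lowest log2 fold change of the 1099 genes. The vehicle spread of 0.129% is narrower than the counting error of 3.48% to 3.99% that 627 to 827 estimated counts carry, so it understates the error of the vehicle mean. In TPM, the extract libraries were at 16.9, 20.3 and 28.1. Over the 16 other settings tried its log2 fold change ran from -1.12 without extract replicate 3 to -0.75 with DESeq2 size factors from the listed genes.

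NFKB2 (ENSG00000077150, chromosome 10, 102394110 to 102402529, plus strand) encodes the precursor of the non-canonical NF-kB subunit and is itself a known NF-kB target. Its normalised counts were 1531, 1498 and 1506 in vehicle replicates 1 to 3 and 1344, 1212 and 999.2 in extract replicates 1 to 3. The groups did not overlap, and extract replicate 3, the highest extract library for CXCL8, was the lowest for NFKB2. Means were 1512 ± 17.3 and 1185 ± 174 (SD, n = 3 each), which is a log2 fold change of -0.35 (SE 0.09). NFKB2 was called in 7 of 16 other settings. The call was lost on all 4 other scales (-0.27 to -0.18), with the replicate number as a block (-0.36), and without vehicle replicate 1 (-0.34), 2 (-0.36) or 3 (-0.35) or extract replicate 2 (-0.37).

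IER3 (ENSG00000137331, chromosome 6, 30743199 to 30744554, minus strand) encodes a short-lived stress-induced protein that acts on cell survival. Normalised counts were 4814, 4877 and 4934 in vehicle replicates 1 to 3 and 3758, 4059 and 4089 in extract replicates 1 to 3. All extract libraries were below all vehicle libraries, by a small margin relative to the level. Means were 4875 ± 60.1 and 3969 ± 183 (SD, n = 3 each), which is a log2 fold change of -0.30 (SE 0.04), or 1.23-fold lower. The call was kept with each library left out and lost on all 4 other scales, where the log2 fold change was -0.21 to -0.12. IER3 is overlapped by the antisense gene IER3-AS1, and CEBPB by CEBPB-AS1. Whether strand was used in counting is not given in the sources used here, so reads of each pair cannot be told apart.

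CEBPB (ENSG00000172216, chromosome 20, 50190734 to 50192689, plus strand) encodes C/EBP beta, a leucine zipper factor that drives acute-phase genes and also acts in stress and differentiation. Its normalised counts were 1440, 1623 and 1760 in vehicle replicates 1 to 3 and 2092, 2191 and 2158 in extract replicates 1 to 3. Here the spread lay in vehicle (9.98% of the mean) rather than in extract (2.36%), and the groups did not overlap. Means were 1608 ± 160 and 2147 ± 50.7 (SD, n = 3 each), which is a log2 fold change of 0.42 (SE 0.07), or 1.33-fold higher. The call was kept on the 4 other scales (0.51 to 0.59) and lost without vehicle replicate 2, at 0.42.

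LCN2 (ENSG00000148346, chromosome 9, 128149071 to 128153455, plus strand) encodes lipocalin-2, a secreted protein that withholds iron from bacteria by binding their siderophores. It had the fewest reads of the 5 genes, with 85, 122 and 101 estimated counts in vehicle replicates 1 to 3 and 135, 138 and 168 in extract replicates 1 to 3. The exact Poisson 95% interval of the smallest, 85, is 67.9 to 105, and that of the largest, 168, is 144 to 195, which covers counting error only. Normalised, the counts were 90.6, 98.7 and 96.6 in vehicle and 146.8, 143.8 and 179.7 in extract. Extract replicate 3 was the highest, and every extract library was above every vehicle library. Means were 95.3 ± 4.24 and 157 ± 19.9 (SD, n = 3 each), which is a log2 fold change of 0.71 (SE 0.13), or 1.64-fold higher, the 9th highest in the table. The call was kept on the 4 other scales (0.81 to 0.89) and lost without vehicle replicate 2 (0.74) or vehicle replicate 3 (0.72).

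By edgeR's call, 3 members were lower and 2 higher, in a table where 53.2% of genes were called lower, 28.9% higher and 82.2% either way. The groups did not overlap in any of the 5, as in 98.4% of the listed genes, 63.9% lower and 34.5% higher. Since the table and the members were both chosen on this contrast, these counts describe the selection. The authors' deposited table takes vehicle over extract, so it marks CXCL8, NFKB2 and IER3 as up and LCN2 and CEBPB as down. The authors' deposited table marks 11 genes as significant, with absolute log2 fold changes from 1.02, and 0 of the 5 are among them.

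**Figure D2:**
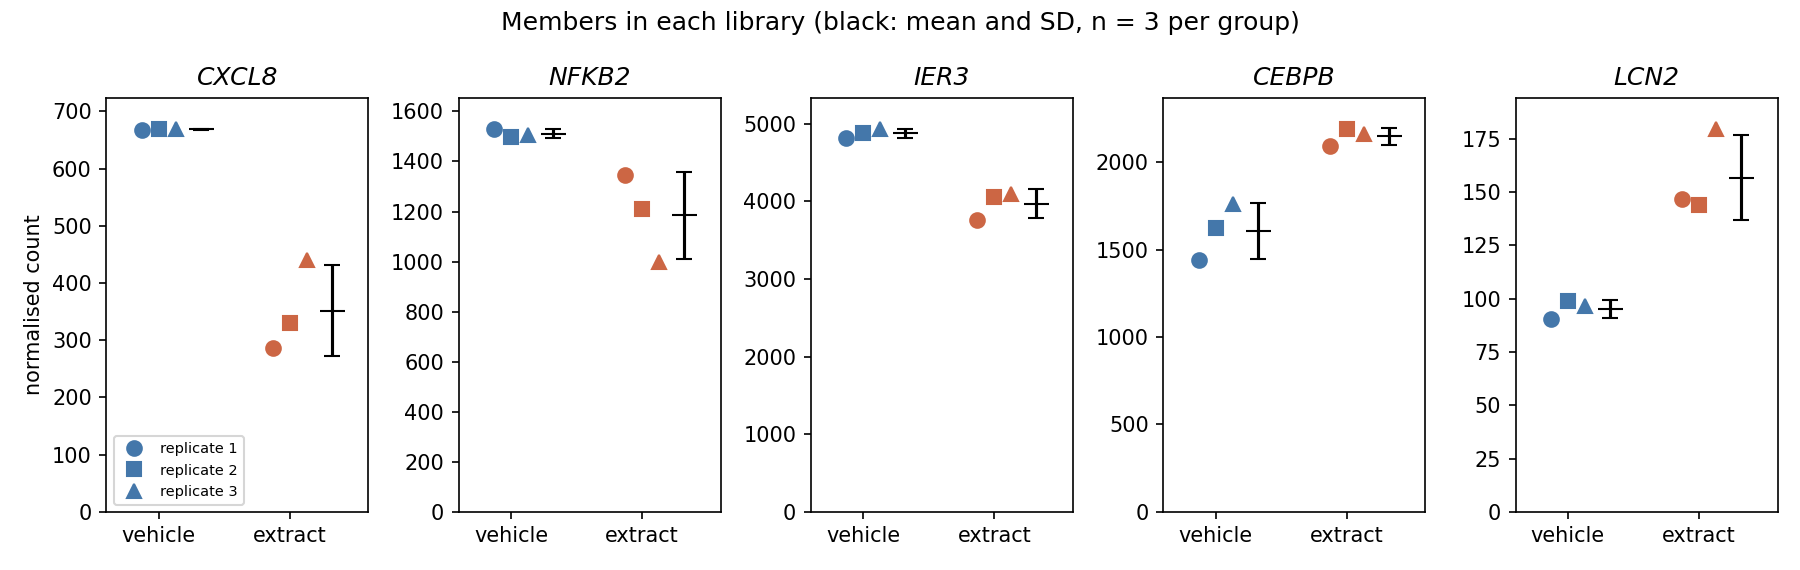
Normalised counts of the 5 genes in each library (marker shape gives the replicate, black bars the mean and SD of 3 libraries). CXCL8, NFKB2 and IER3 are lower in every extract library, CEBPB and LCN2 higher, and CXCL8 spreads from 285.9 to 439.7 with extract against 668.0 to 669.7 with vehicle.

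**Figure D3:**
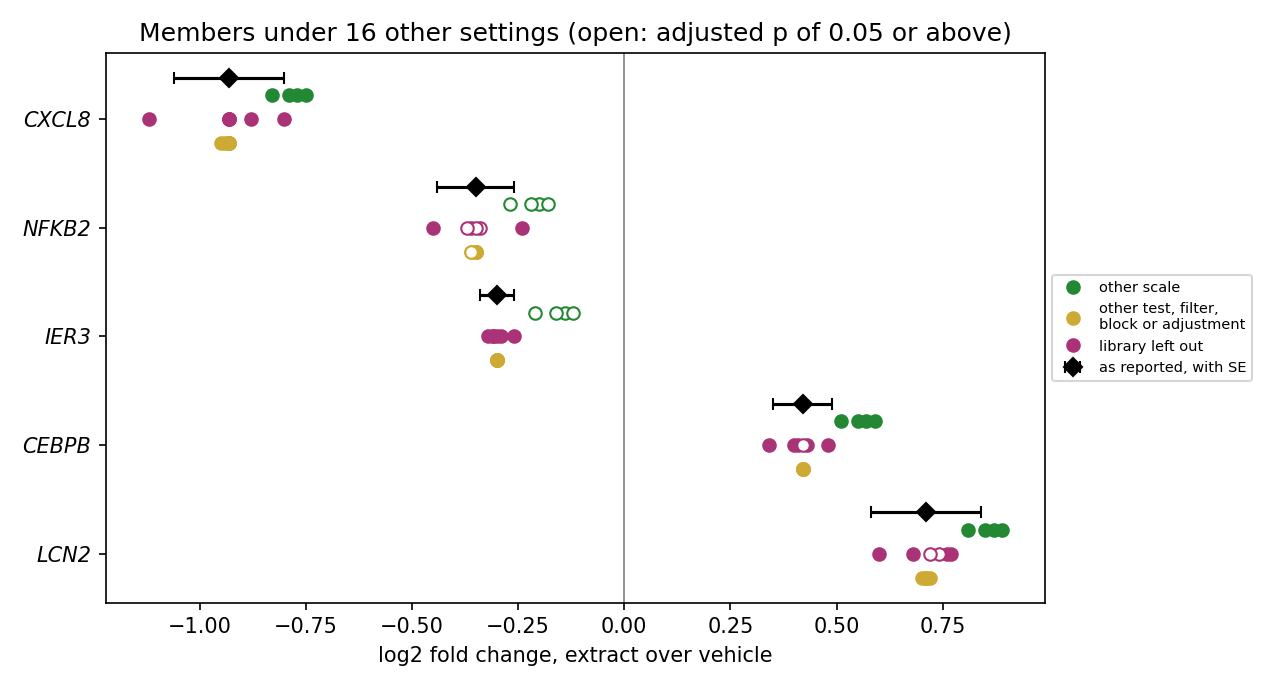
Log2 fold change of each gene, extract over vehicle, as reported with its SE (black) and under 16 other settings (coloured points, open where the adjusted p was 0.05 or above). No gene crosses 0, and the open points of NFKB2 and IER3 include all 4 other scales.

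Per length, the 5 genes differed in level by more than an order of magnitude. IER3 was the highest in each group, at 392 ± 6.34 TPM in vehicle and 340 ± 26.2 in extract (SD, n = 3 each). CEBPB followed at 80.1 ± 8.01 and 113 ± 6.16 TPM, then NFKB2 at 57.7 ± 2.57 and 46.5 ± 7.24 TPM. CXCL8 stood at 38.6 ± 0.451 TPM in vehicle, above LCN2 at 13.9 ± 0.172. In extract CXCL8 was at 21.8 ± 5.73 and LCN2 at 24.4 ± 3.62 TPM. Their ranges over the extract libraries overlapped, and within each extract library LCN2 was above CXCL8.

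Ratios of TPM between members within a library do not depend on how libraries are scaled. CXCL8 over LCN2 was 2.83, 2.71 and 2.77 in vehicle replicates 1 to 3 and 0.746, 0.928 and 0.985 in extract replicates 1 to 3. LCN2 thus exceeded CXCL8 in every extract library and in no vehicle library, and the mean ratio was 3.13-fold higher in vehicle. IER3 over CEBPB went from 4.92 ± 0.451 to 3.00 ± 0.0695 (SD, n = 3 each). Among the 3 lower genes, NFKB2 over IER3 overlapped between groups, at 0.142 to 0.153 in vehicle and 0.107 to 0.170 in extract. CXCL8 over IER3 did not overlap, at 0.0972 to 0.0993 and 0.0543 to 0.0775, so CXCL8 was lower relative to IER3 as well. CXCL8 over NFKB2 overlapped, since extract replicate 3 was at 0.726 against 0.319 and 0.425 in extract replicates 1 and 2. LCN2 over CEBPB was 0.158 to 0.190 in vehicle and 0.190 to 0.241 in extract. These groups did not overlap, but their nearest libraries were equal as rounded here. The pairs that join a lower gene to a higher one did not overlap, which follows from the directions the genes were chosen for.

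**Figure D4:**
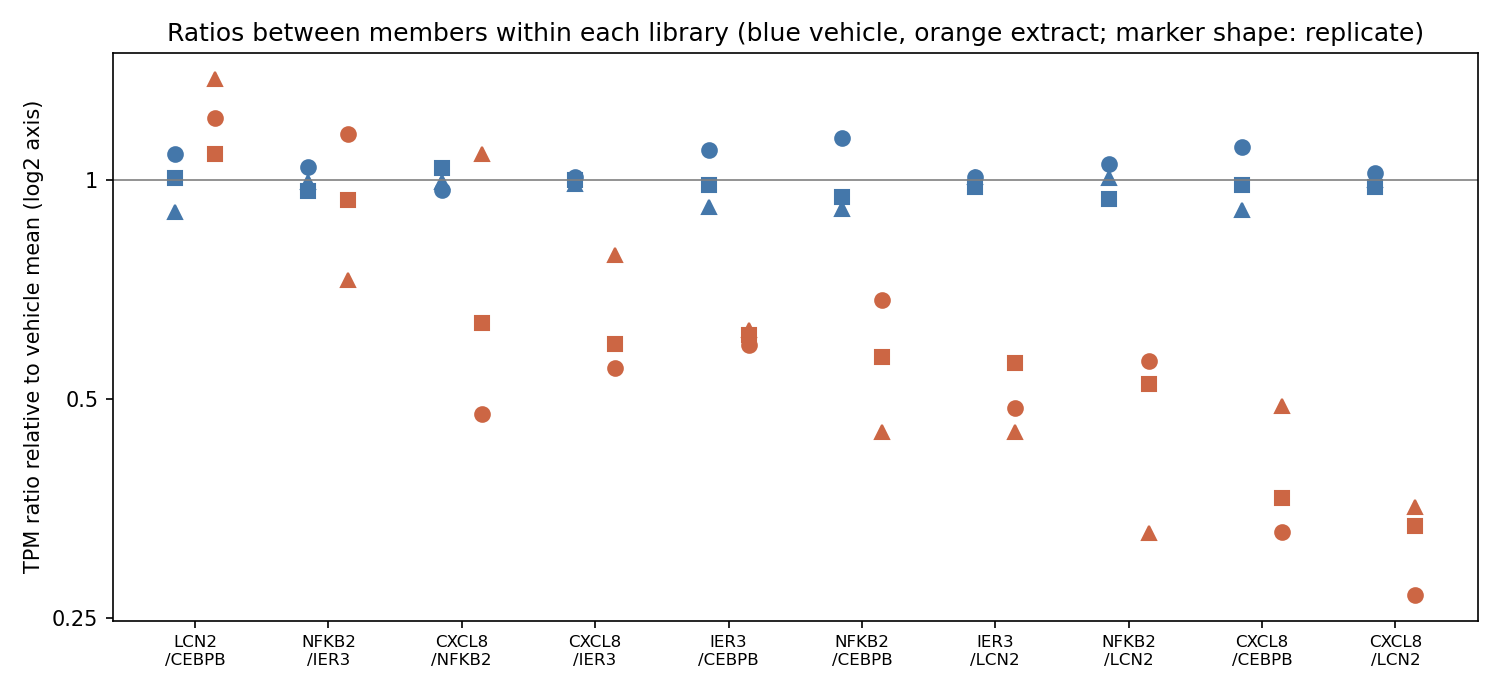
TPM ratio of each pair of genes within each library, over the vehicle mean of that ratio, on a log2 axis (blue vehicle, orange extract, marker shape gives the replicate). The CXCL8 to LCN2 ratio lies lowest with extract, and the NFKB2 to IER3 and CXCL8 to NFKB2 ratios overlap between the groups.

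The wider pathways were read through 10 lists of 144 genes in all, of which 21 were in the table, the 5 members included. Of these 21, 10 were called lower and 7 higher, in a table where 53.2% of genes were called lower and 28.9% higher. Their median log2 fold change was -0.24 against -0.22 over all listed genes. Without the members, 7 of 16 were lower and 5 higher, with a median of -0.22. These counts lie near the shares of the whole table and say nothing particular of the lists. No listed pathway gene changed sign on the 4 other scales. The balance of calls, however, turned: 9 of 21 were called higher on each of these scales, and 3 were called lower on the TPM scale and 2 on each of the other 3. Over the whole table of 1099 genes it turned in the same way, with 197 lower and 371 higher on the TPM scale, 126 and 386 by sums, 87 and 385 by TMM, and 86 and 387 by DESeq2 size factors.

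Of 10 NF-kB subunits and inhibitors, NFKB2 and NFKBIB were in the table. NFKBIB, the inhibitor IkB beta, was lower at -0.31 (SE 0.08). Of 24 receptors, adaptors and kinases of the pathway, TNFRSF1B alone was in the table. It encodes the second receptor of tumour necrosis factor and was lower at -0.35 (SE 0.09). Of 14 feedback and survival targets, IER3 and CFLAR were in the table, and CFLAR, an inhibitor of caspase-8 activation, was lower at -0.24 (SE 0.05). NFKB1, RELA, RELB, REL, NFKBIA, TNFAIP3 and BIRC3 were not among the listed genes. The other subunits and the classic feedback inhibitors were therefore not analysed here. The calls of NFKBIB, TNFRSF1B and CFLAR were lost on all 4 other scales, with the replicate block, without vehicle replicate 2 and without extract replicate 2. Those of NFKBIB and TNFRSF1B were also lost without vehicle replicate 3, and that of NFKBIB without extract replicate 3.

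Of 16 chemokines and chemokine receptors, CXCL8 and CXCL1 were in the table. CXCL1, another neutrophil chemokine, was at 320 ± 39.1 normalised counts in vehicle and 237 ± 24.6 in extract (SD, n = 3 each). Its log2 fold change of -0.43 (SE 0.12) missed the threshold. Of 18 cytokines and mediators, 4 were in the table. IL32 was lower at -0.62 (SE 0.07) and CSF1, the macrophage growth factor, higher at 0.54 (SE 0.08), and both were called in all 16 other settings. IL18, a cytokine of the interleukin-1 family, was lower at -0.32 (SE 0.04), a call kept on the TPM scale and lost on the other 3. PTGS2, the inducible cyclooxygenase, was at -0.43 (SE 0.12) and missed the threshold. Cytokines themselves thus stood on either side of 0.

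Of 23 acute-phase and epithelial defence proteins, LCN2 and FGA were in the table, both called higher, as were 28.9% of all listed genes. LCN2 is a member chosen with its direction known, so FGA is the only other gene here. FGA, the fibrinogen alpha chain, had 294 ± 8.47 normalised counts in vehicle and 425 ± 83.2 in extract (SD, n = 3 each), with a log2 fold change of 0.53 (SE 0.13). Its call was kept on the 4 other scales. It was lost with the replicate block, without any of the 3 vehicle replicates, and without extract replicate 1 or 2. Of 10 C/EBP factors and partners, CEBPB and CEBPZ were in the table. CEBPZ, which despite its name lacks the family's leucine zipper, was at -0.20 (SE 0.04), a call lost on all 4 other scales, with the replicate block, without vehicle replicate 2 or 3 and without extract replicate 2. Of 11 genes of interleukin-6 receptor and STAT3 signalling, the kinases JAK2 at 0.48 (SE 0.13) and JAK1 at 0.17 (SE 0.05) were in the table and missed the threshold, which they passed on the 4 other scales.

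Of 10 genes of iron handling linked to lipocalin-2, 4 were in the table and all 4 were called higher, against 28.9% of all listed genes. Their median was 0.45, against -0.22 over the whole table. LCN2 among them is a member chosen with its direction known, and the list was also drawn up with earlier results known. The count and median are therefore a description. The others were the haem-degrading enzyme HMOX1 at 0.59 (SE 0.14) and the iron-storage ferritins FTL at 0.32 (SE 0.07) and FTH1 at 0.29 (SE 0.05). All 4 stayed called on the 4 other scales, and 0 of the 3 beside LCN2 stayed called without vehicle replicate 2 or without extract replicate 2. HMOX1 and FTL also lost the call without vehicle replicate 3, and FTL without vehicle replicate 1. The replicate block ended the calls of FTL and FTH1. SLC22A17, LRP2, MMP9, TFRC, SLC11A2 and SLC40A1 of this list were not in the table. Whether HMOX1, FTL and FTH1 were linked to LCN2 in these cells was not tested. Of 9 AP-1 factors FOSL1 was in the table, lower at -0.28 (SE 0.06). Its call was lost on all 4 other scales, with the replicate block and without vehicle replicate 2 or 3 or extract replicate 2 or 3.

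**Figure D5:**
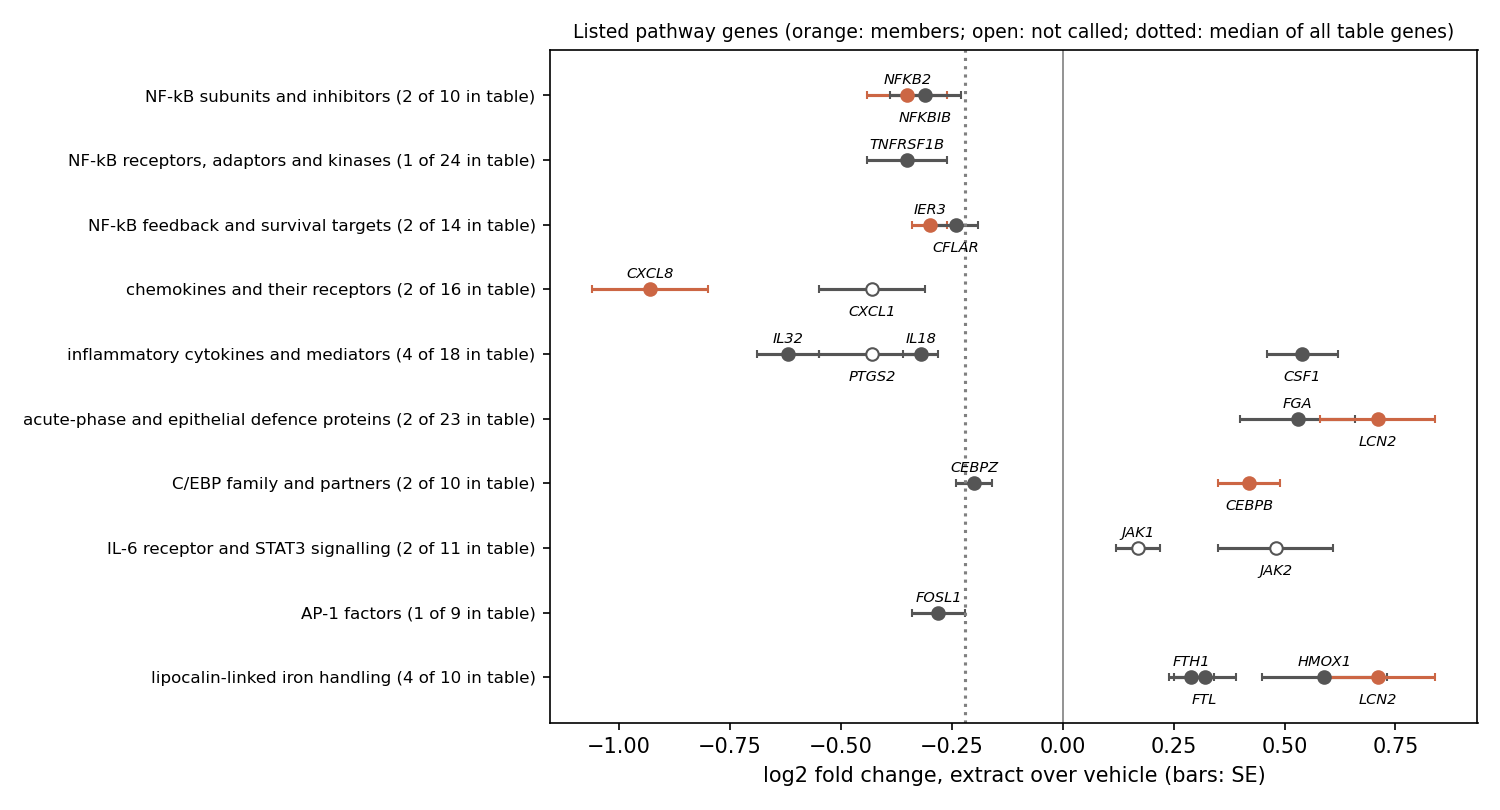
Log2 fold change, extract over vehicle, with SE of every pathway gene in the table, by list (orange for the 5 members, open where not called, dotted line at the median of -0.22 over all 1099 genes). The genes of the NF-kB lists that were in the table lie left of 0, those of the acute-phase and iron lists right of it, and cytokines on either side. Members were chosen with their directions known, and every gene of the NF-kB lists lost its call on all 4 other scales.

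The annotation in the authors' deposited table ties the 5 genes together only loosely. It gives the term for inflammatory response to CXCL8 alone of the 5, and that for acute-phase response to CEBPB alone. The acute-phase term held 1 other gene of the table, ASS1, which was called lower at -0.76. The NF-kappa B signalling pathway is given to CXCL8 and NFKB2, and IER3 has 8 ontology terms and 0 pathways. NF-kappa B signalling held 6 genes of the table, 3 called lower, 1 higher and 2 not called, with a median of -0.30. Its 4 genes beside the members had a median of 0.01. TNF signalling, given to CEBPB alone of the 5, held 11 genes, 5 lower, 4 higher and 2 not called, with a median of -0.20. The most shared specific terms were the IL-17 signalling pathway and the cellular response to interleukin-1, each held by CXCL8, LCN2 and CEBPB. IL-17 signalling held 7 genes of the table, 3 called lower and 2 higher, with a median of -0.28, beside 53.2% lower, 28.9% higher and a median of -0.22 in the whole table. Its other 4 genes were FOSL1, CXCL1, MMP1 and SRSF1, with 2 called lower, 0 higher and a median of -0.36. Both genes called higher were thus members, chosen for their directions. Response to interleukin-1 held 6 genes, 3 lower and 3 higher. Those beside the members were KLF2, CHI3L1 and ANKRD1, with 2 lower, 1 higher and a median of -0.46. Inflammatory response held 12 genes of the table, 5 lower, 3 higher and 4 not called, with a median of -0.34 against -0.22 over all listed genes.

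The genes whose normalised counts followed each member most closely over the 6 libraries came from varied processes. Pearson's r on log2(count + 1) was highest with CXCL8 for SEC24A (0.998), EHF (0.997) and RPL22L1 (0.996), where the median over the table was 0.72. For NFKB2 these were PFDN1 (0.995), GPRC5A (0.990) and SNRPB (0.988), and for IER3 GTF2A2 (0.995), NDUFAF4 (0.994) and NIFK (0.993). For LCN2 they were ZNF532 (0.997), NBN (0.992) and FAM210B (0.992), and for CEBPB FAM102A (0.986), ITPR2 (0.980) and TPP1 (0.979). The median over the table was 0.71 for NFKB2, 0.79 for IER3, -0.84 for LCN2 and -0.74 for CEBPB. With 6 libraries in 2 groups and genes selected for a group difference, these values are a description: every one is taken over the same 6 libraries on the same scale, and what sets them was not tested.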

How the data were processed

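The 5 genes, the gene lists and the motifs were chosen with earlier results of these data known. The authors deposited estimated counts per gene and library, not whole for 31.8% to 35.9% of values and rounded here, and TPM values per library. Per the file headers, their own comparison lists a ratio (fold change), its log2, and p-values before and after adjustment. Reads were placed on GRCh38.p13 according to the submitters' processing notes. The aligner, counter and annotation were not given in the sources used here. Coordinates are from GENCODE on GRCh38.

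Size factors were those with which DESeq2 1.42.0 returns the deposited fold changes (median absolute log2 difference 6.9e-05): vehicle replicates 1 to 3 had 0.939, 1.24 and 1.05, and extract replicates 1 to 3 had 0.920, 0.959 and 0.935. Listed counts summed to 3084338 to 4640117 per library. Genes were tested with edgeR 4.0.16 (quasi-likelihood, R 4.3.3, limma 3.58.1) on all 1099 genes, without covariates, adjusting by Benjamini-Hochberg over 11289 genes, and checked on simulated data. The spread was estimated from selected genes, so p-values may be too small. SE is the absolute log2 fold change over the square root of F. edgeR's filter removed 0 genes. Named genes were the 5 members, up to 4 genes per list by p, and the 3 genes most correlated with each member. Alternatives were 4 other scales, DESeq2, limma-voom, 2 filters, a replicate block, adjustment over listed genes and leaving out each library.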

Additional observations from a re-analysis of the deposited data

How the results depend on the processing

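All 5 members kept their direction in all 16 other settings, which is no independent support, since they were chosen on this contrast and their groups do not overlap. Counts called lower with extract were 585 genes, 3 members and 10 pathway-list genes as reported. When libraries were scaled on the listed genes, they were 87, 1 and 2 by TMM, 86, 1 and 2 by DESeq2 size factors, and 126, 1 and 2 by plain sums. On the TPM scale they were 197, 1 and 3. These scales shift every log2 fold change upward, and NFKB2 and IER3 lost their calls there. The authors' TPM put the log2 ratio of group means of IER3 at -0.20.

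With the replicate block 259 genes were lower and 108 higher (318 as reported), and 4 and 4 pathway-list genes (10 and 7 as reported). Among the members the replicate block ended only the call of NFKB2. Replicate numbers did not pair the libraries: same-numbered deviations correlated at -0.23, -0.01 and -0.03. Leaving out each library in turn gave 128 to 569 genes lower and 50 to 287 higher, 2 to 3 members lower and 0 to 2 higher, and 4 to 10 pathway-list genes lower and 1 to 8 higher, each lowest count occurring without vehicle replicate 2. Dropping the filter changed nothing, since edgeR's filter removed 0 genes, and a minimum of 50 counts removed 10 genes and no member. Adjustment over the listed genes alone called all 1099. Depth limits LCN2 most, at 85 to 168 counts.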
